A study of Sus scrofa with 6 samples.

Results

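Collagen chains were followed through the mRNA arrays of a glycolytic and an oxidative muscle of the pig. Probes were taken as collagen probes when the gene name in the array design was COL, a number, A and a number, or when the description named a collagen alpha chain or a collagen type. Probes described as a collagenase were left out. This gave 30 of the 43603 probes, for 19 of the 3561 genes that could be named on the arrays. Of these, 14 probes stood for 7 fibrillar genes, 4 probes for 3 basement membrane genes and 12 probes for 9 genes of other types. The study set the longissimus dorsi muscle (LDM), a glycolytic muscle of the back, against the psoas major muscle (PMM), an oxidative muscle under the spine. Both muscles came from 3 unrelated female Landrace pigs aged 210 days, with no treatment or genetic change in either group and with feed withdrawn for 24 h before slaughter. Each muscle had 3 one-colour Agilent arrays, and the samples were pieces of whole muscle, with the vessels, connective tissue and fat they held. The text on RNA extraction in the sample labels spoke of adipose tissue, but all 6 skeletal fibre markers looked at, among them ACTA1, CKM and TTN, stood well above background on each of the 6 arrays.

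Collagens are made of 3 alpha chains wound into a triple helix. Fibrillar collagens of types I, III and V build the tension-bearing fibres of the sheaths around muscle bundles and fibres, and fibroblasts make most of them. Type IV collagen forms the sheet of the basement membrane, which wraps each muscle fibre and each capillary. Type VI forms beaded filaments between the basement membrane and the fibres outside it, and types XII and XVI sit on the surface of fibrils.

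The probes were 60-base DNA oligos, and several chains had more than one, which did not always report the same. The sequences below are those on which the account of types I, XII and IV rests, as given in the array files. Probes are named by the number in the array design. A probe is shown whole where at least 2 of its 3 forward reading frames held no stop codon and it lacked the letters AATAAA, and otherwise by a 30-base stretch. Capitals mark AATAAA, the usual signal for adding the poly(A) tail, where it was found.
COL1A1 probe P343643: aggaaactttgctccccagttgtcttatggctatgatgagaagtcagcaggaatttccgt
COL1A1 probe P198052, first 30 bases: agtaaagaaagaggtggtctttcctgacac
COL1A2 probe P380037: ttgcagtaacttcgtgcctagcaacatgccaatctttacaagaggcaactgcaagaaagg
COL1A2 probe P192797, first 30 bases: agctgaatgatgatggatcatgccttagat
COL12A1 probe P293419, first 30 bases: aatcctttgtttacaaaagctgcagggaga
COL12A1 probe P002191: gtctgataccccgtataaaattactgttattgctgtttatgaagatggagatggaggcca
COL4A1 probe P316078, bases 24 to 53: gcacaagccactAATAAAtttggaagcttt
COL4A1 probe P315543, first 30 bases: taacagatgattcagtgctagggtgttgaa
COL4A2 probe P316003, bases 22 to 51: atctcaagatgcAATAAAatctgtttttct

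AATAAA was found on the printed strand of 5 of the 30 collagen probes, or 16.67%, against 12.11% of all 43603 probes. On the opposite strand it was found in 1 collagen probe, or 3.33%, against 4.63% of all probes. The 5 probes belonged to COL3A1, COL4A1, COL4A2, COL6A1 and COL16A1. No 2 collagen probes shared a stretch of 15 bases, so none was a copy of another.

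Values are the log2 of the processed spot intensity minus that of the array's 75th percentile, so 0 is the level of a spot at that percentile. A difference is PMM minus LDM on this scale, and -1 is a halving of the signal. Between 58.5% and 72.4% of the spots of an array were well above the background, and no spot was saturated. The LDM and PMM arrays of 1 number deviated together from their group means, with correlations of 0.56 to 0.697, and were scanned on the same day, so pig and day cannot be told apart. Only 3 arrays per muscle were made, which limits the precision of every difference. The limma SE and p-values rest on the spread between these arrays, drawn for each probe toward that shared by all tested probes. Where a probe's arrays lay close together, as for TGFB2 and COL7A1, the SE is therefore larger than their own spread would give. Each SE printed is from the fit without the replicate number, so it also holds the spread between replicate numbers.

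Of the 30 collagen probes, 22 probes for 17 genes stood well above background on each of the 6 arrays and were tested. Their difference was below 0 for 17 and above 0 for 5, with a median of -0.28 and a range of -1.01 to 0.34. Over all 25835 probes tested, the median was -0.04, and 55.8% were lower in PMM. None of the 22 collagen probes passed limma's test at an adjusted p of 0.05, against 0.031% of all probes. With the replicate number as a block again none of the 22 passed, against 0.0658% of all probes. An unadjusted limma p below 0.05 was found for 1 of the 22 against 2.63% of all probes, and with the block for 3 of the 22 against 11.1%, shares near those over all probes. In bulk tissue, fewer cells that make a collagen and less collagen mRNA per cell cannot be told apart.

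The plot of the collagen probes by array shows how far single arrays moved together. The third LDM array was the highest of the 6 for 14 of the 22 probes, and the first PMM array was the lowest for 10. Replicate 3 was the highest in both muscles for 17 of the 22, against 19.4% of all probes with values on every array. The range among the LDM arrays was wider than the difference between the muscles for 20 of the 22 probes. The median SD over the collagen probes was 0.657 among LDM arrays and 0.447 among PMM arrays.

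**Figure D1:**
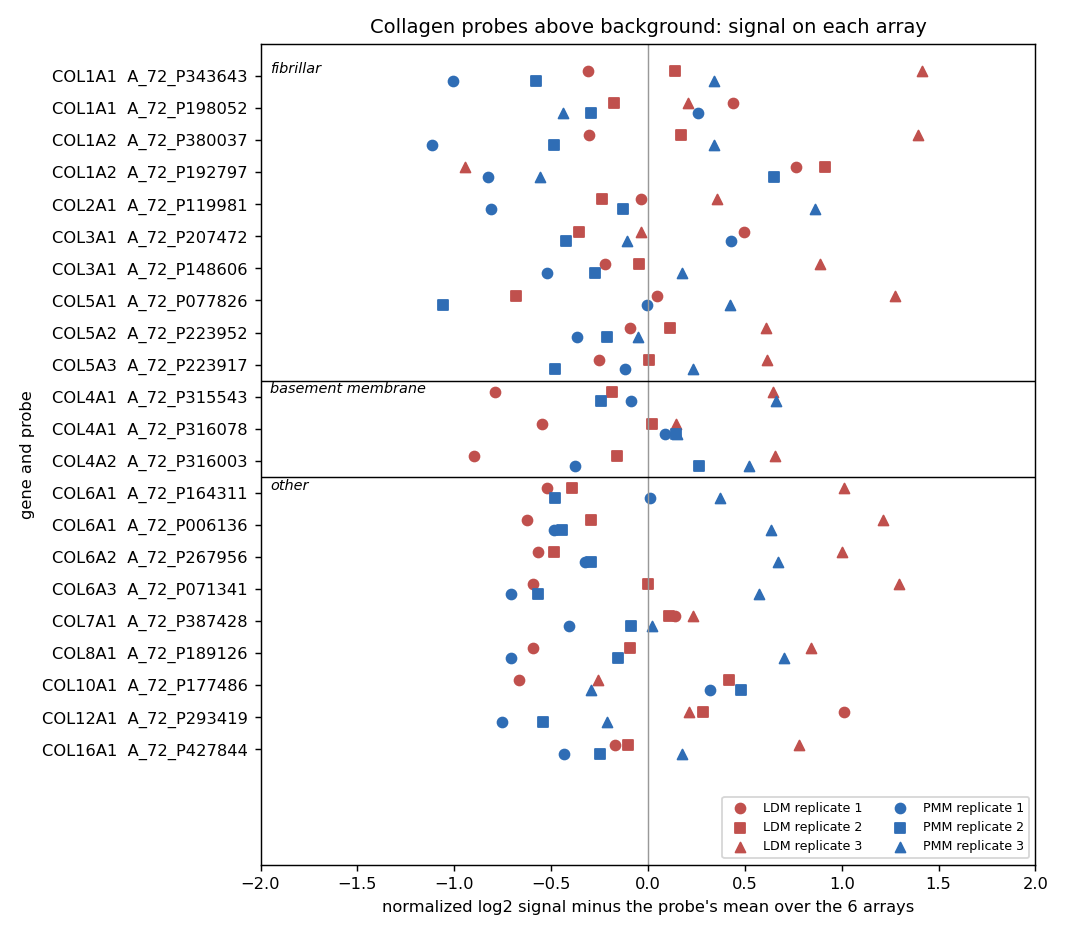
Normalized log2 signal of the 22 tested collagen probes on each array, given as the distance from the probe's mean over the 6 arrays (horizontal axis), by gene and probe (vertical axis). Red marks are LDM and blue marks PMM, the shape gives the replicate number, and the third LDM array lies farthest to the right for 14 probes.

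Within a replicate number, PMM was below LDM in all 3 pairs for 12 of the 22 collagen probes, against 19.4% of all probes. It was above LDM in all 3 pairs for 1 probe, COL4A1 P316078, against 16.4% of all probes. That probe differed by only 0.0022 in pair 3, and the other COL4A1 probe, P315543, differed by -0.05 in pair 2. Without overlap between the muscles, PMM lay below LDM for 2 of the 22, COL12A1 and COL7A1, against 2.87% of all probes. It lay above LDM without overlap for 0 of the 22, against 3.07% of all probes. These counts are over probes that share arrays, and 5 genes had more than one tested probe.

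**Figure D2:**
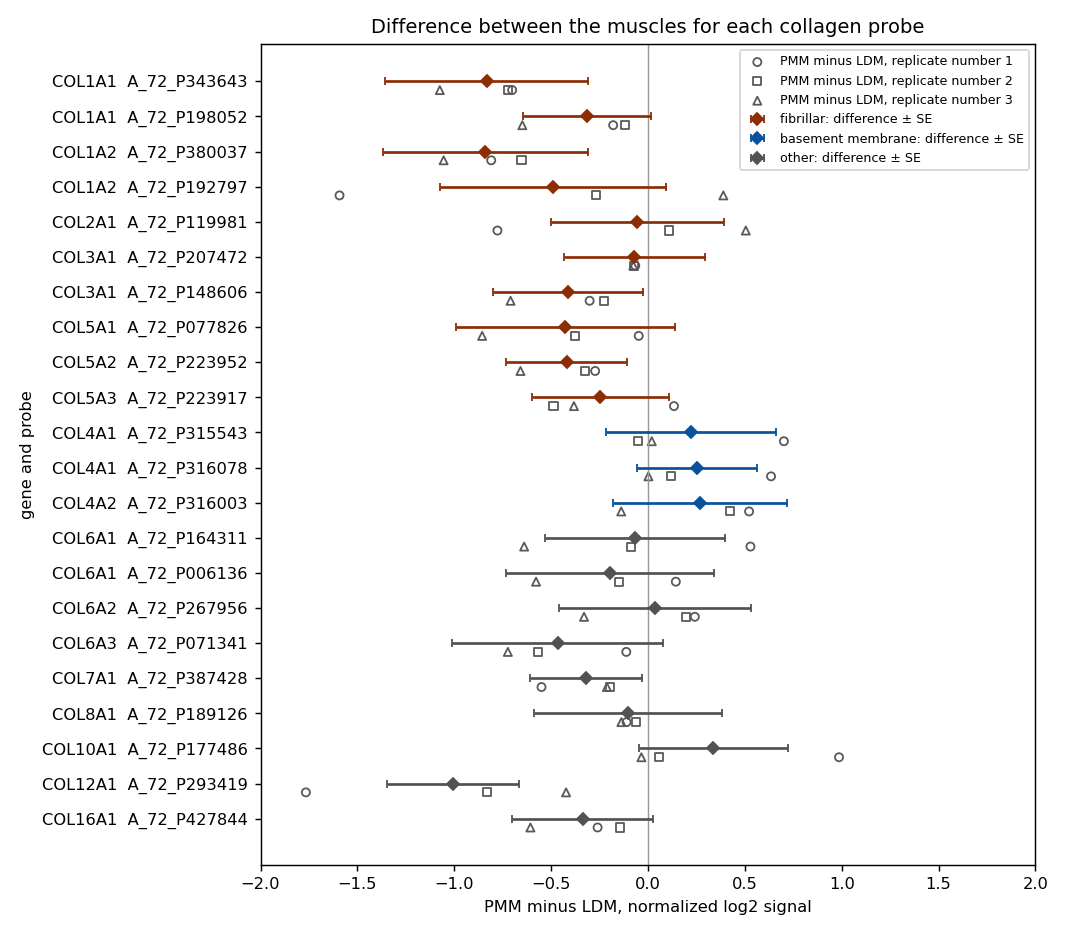
Difference between PMM and LDM in normalized log2 signal (horizontal axis) for each tested collagen probe (vertical axis). Diamonds with bars are the limma difference ± SE, coloured by class, and open marks are the differences within each replicate number; all 10 fibrillar diamonds lie left of 0 and all 3 of type IV right of it.

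The fibrillar collagens had the lower signal in PMM for 10 of 10 tested probes, against 55.8% of all probes. Their median difference was -0.42, from -0.84 to -0.05, and within replicate numbers 1, 2 and 3 the median was -0.29, -0.30 and -0.65. PMM was lower in all 3 pairs for 7 of the 10, against 19.4% of all probes. None passed the adjusted test, and none had an unadjusted limma p below 0.05 without the block, against 0.031% and 2.63% of all probes. With the block 2 of the 10 had one, COL1A1 P343643 and COL1A2 P380037, against 11.1% of all probes. Leaving out the third LDM array brought the median to -0.16 and the number of lower probes to 7 of 10. With the block and both arrays of replicate 3 left out, so that pairs stayed whole, the median was -0.28 and all 10 were lower. The number was 8 of 10 when both arrays of replicate 1 were left out in this way. It was also 8 of 10 with normexp background correction, and 9 of 10 with slides as the block.

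Type I collagen, the main collagen of the muscle sheaths, joins 2 chains of COL1A1 to 1 of COL1A2. COL1A2 probe P380037 read -1.41, -0.93 and 0.29 in LDM and -2.22, -1.59 and -0.76 in PMM. The difference was -0.84 ± 0.53 (SE, limma, adjusted p = 1.0). PMM was lower in every pair, by steps of -0.81, -0.65 and -1.06, but the spread between replicate numbers was larger than these steps and the muscles overlapped. COL1A1 probe P343643 read -3.05, -2.60 and -1.32 in LDM and -3.75, -3.32 and -2.40 in PMM. Its steps of -0.70, -0.72 and -1.07 ran close to those of COL1A2 P380037, and its difference was -0.83 ± 0.52 (SE). With the replicate number as a block the SE was smaller, at 0.18 for COL1A1 P343643 and 0.17 for COL1A2 P380037. Their adjusted p in limma with the block was 0.229 and 0.225, the lowest values among the collagen probes.

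The second tested probe of each type I chain gave another picture. COL1A1 P198052, the brighter of its probes, read 1.77, 1.15 and 1.53 in LDM and 1.59, 1.03 and 0.89 in PMM. Its difference was -0.32 ± 0.33 (SE), and replicate 1 was its highest array in both muscles. COL1A2 P192797 read -0.69, -0.54 and -2.40 in LDM and -2.28, -0.80 and -2.01 in PMM. It was higher in PMM in the pair of number 3 by 0.39 and lower in the others, so its difference of -0.49 ± 0.58 (SE) had no shared direction over the pairs. The remaining COL1A1 probe was not well above background on any array.

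Type III collagen, which mixes with type I in thin reticular fibres, read 5.51, 5.69 and 6.62 in LDM and 5.21, 5.46 and 5.91 in PMM with its brightest probe, P148606. PMM was lower in each pair, the muscles overlapped, and the difference was -0.41 ± 0.39 (SE). The probe P207472, which its description ties to COL3A1 only through a short match to a frog protein, differed by -0.07 ± 0.36 (SE), and by nearly the same in each pair. Another COL3A1 probe was well above the background on 1 LDM array only, and the remaining one on none.

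Type V collagen is built into the core of type I fibrils and limits their width. COL5A2 read 0.20, 0.41 and 0.90 in LDM and -0.07, 0.08 and 0.24 in PMM. Here the 3 PMM arrays lay close together, the highest of them just above the lowest LDM array, and the difference was -0.42 ± 0.31 (SE). COL5A1 read -0.74, -1.46 and 0.50 in LDM and -0.79, -1.84 and -0.36 in PMM, with a difference of -0.43 ± 0.57 (SE). PMM was lower in each pair. The COL5A1 difference was 0.10 without the third LDM array and -0.0045 without the second PMM array, but -0.21 with the block and both arrays of replicate 3 left out. A second COL5A2 probe was well above the background on 1 PMM array only. COL5A3 differed by -0.25 ± 0.35 (SE). A probe described as type II collagen, the cartilage type, matched a lamprey protein over a short stretch only and differed by -0.05 ± 0.45 (SE).

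**Figure D3:**
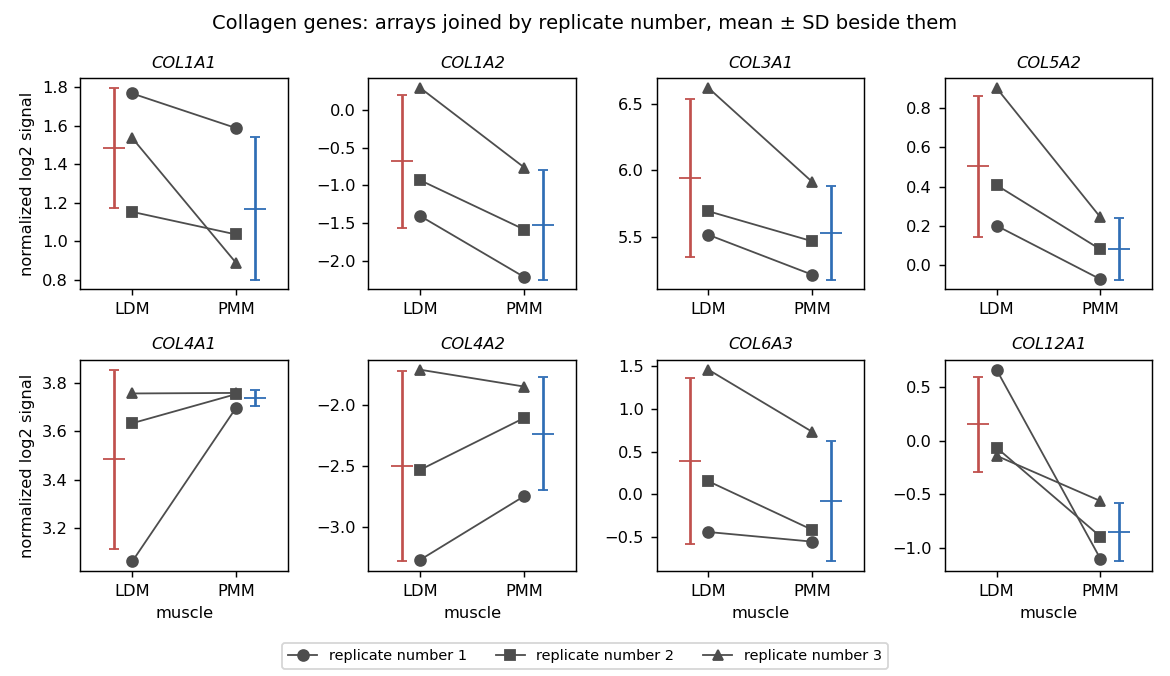
Normalized log2 signal (vertical axes, each gene on its own scale) of 8 collagen genes in LDM and PMM, each by its brightest probe. Lines join the arrays of 1 replicate number, and the bars beside them give the mean ± SD of 3 arrays; the lines of COL1A1, COL1A2, COL3A1, COL5A2, COL6A3 and COL12A1 all fall from LDM to PMM.

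Type IV collagen stood on the other side. All 3 tested probes were higher in PMM, against 44.2% of all probes, with a median difference of 0.25. None passed the adjusted test, against 0.031% of all probes. No unadjusted limma p was below 0.05 with or without the block, against 11.1% and 2.63% of all probes. COL4A1 and COL4A2 encode the chains of the common basement membrane network, in which 2 of the first join 1 of the second. COL4A1 probe P316078 read 3.06, 3.63 and 3.76 in LDM and 3.70, 3.75 and 3.76 in PMM, a difference of 0.25 ± 0.31 (SE). The PMM arrays were nearly level, at an SD of 0.0337, and the first LDM array stood well below the others. COL4A1 P315543 read 2.28, 2.89 and 3.72 in LDM and 2.99, 2.83 and 3.74 in PMM, a difference of 0.22 ± 0.44 (SE).

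COL4A2 read -3.27, -2.53 and -1.71 in LDM and -2.75, -2.11 and -1.85 in PMM. Its difference was 0.27 ± 0.45 (SE), and PMM was higher in the pairs of numbers 1 and 2 and lower in that of number 3. The median over the 3 type IV probes was 0.64 in pair 1, 0.12 in pair 2 and 0.00 in pair 3. It became -0.11 without the first LDM array, when 1 of the 3 was higher in PMM, and 0.06 with the block and both arrays of replicate 1 left out, when 2 were. With slides as the block the median was 0.10, and the arrays of pair 1 lay on different slides. Whether the difference of type IV departed from that of the fibrillar chains was not tested. COL4A3, a chain of the kidney and lung basement membranes, was well above the background on 1 LDM array only and was not tested.

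The 9 tested probes of the other types had a median difference of -0.19. For 7 of them PMM was lower, against 55.8% of all probes, and for 5 it was lower in all 3 pairs, against 19.4%. None passed the adjusted test, against 0.031% of all probes, and 1, COL12A1, had an unadjusted limma p below 0.05, against 2.63%. The largest difference among all 22 collagen probes was that of COL12A1, whose product bridges the surface of type I fibrils and is strong in tendon and muscle sheaths. COL12A1 probe P293419 read 0.66, -0.06 and -0.14 in LDM and -1.10, -0.89 and -0.56 in PMM. Every PMM array lay below every LDM array, the signal being 2.01-fold lower in PMM, with a difference of -1.01 ± 0.34 (SE). An exact two-sided permutation test gave p = 0.1, the smallest that 3 against 3 arrays allow, and limma's adjusted p was 1.0, or 0.316 with the block. Over the alternatives tried, the COL12A1 difference ran from -1.30 to -0.63 and its adjusted p from 0.117 to 1.0. The step was largest in pair 1, at -1.77, where the arrays lay on different slides. With slides as the block the COL12A1 difference was -0.71. Both other COL12A1 probes were not well above background on any array, so the difference stands on 1 of 3 probes.

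COL7A1, the chain of anchoring fibrils below epithelia, was the other chain without overlap. It read -0.60, -0.63 and -0.51 in LDM and -1.15, -0.83 and -0.72 in PMM. The difference was smaller, at -0.32 ± 0.29 (SE), and the LDM arrays had an SD of only 0.0632. The exact permutation test again gave p = 0.1. COL16A1, a minor chain of fibril surfaces, read -0.24, -0.17 and 0.71 in LDM and -0.50, -0.32 and 0.10 in PMM, lower in each pair but with overlap, at -0.34 ± 0.37 (SE).

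Type VI collagen, whose loss causes muscle weakness, had 3 genes on the array with differences on both sides of 0. COL6A3 read -0.44, 0.15 and 1.45 in LDM and -0.55, -0.41 and 0.73 in PMM, a difference of -0.47 ± 0.55 (SE). COL6A1 probe P006136 read 5.30, 5.63 and 7.14 in LDM and 5.44, 5.48 and 6.56 in PMM, a difference of -0.19 ± 0.54 (SE). COL6A2 read -3.70, -3.62 and -2.13 in LDM and -3.46, -3.42 and -2.46 in PMM, a difference of 0.04 ± 0.50 (SE). In all 3 genes replicate 3 was the highest array in both muscles, and the difference of pair 3 was the lowest of the pairs. Without the third LDM array the difference was 0.36 for COL6A1 and 0.06 for COL6A3, and with the block and both arrays of replicate 3 left out it was -0.0034 and -0.34.

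COL8A1, a short chain made by vessel walls, differed by -0.10 ± 0.49 (SE). COL10A1, a chain of the growth plate, differed by 0.34 ± 0.38 (SE), with PMM higher in pairs 1 and 2 by 0.99 and 0.06 and lower in pair 3. COL22A1, a chain of the junction between muscle and tendon, was not well above background on any array. In all, 8 collagen probes were not tested, of which 5 were well above the background on none of the 6 arrays.

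**Figure D4:**
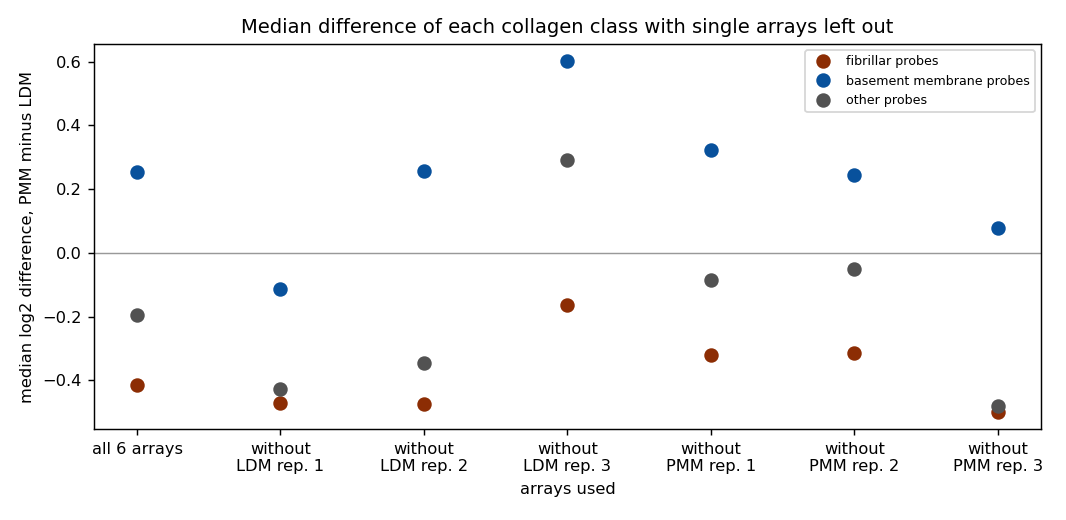
Median difference between PMM and LDM in log2 signal (vertical axis) over the 10 fibrillar, 3 basement membrane and 9 other collagen probes, with all 6 arrays and with each array left out in turn (horizontal axis). The fibrillar median stays below 0 throughout, at -0.16 without the third LDM array, while the other classes each cross 0 once.

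A list of 52 genes that fold, trim, crosslink, bind or induce collagen was read from the same fit. The array held probes for 18 of these genes, and 28 of their 35 probes were tested. PMM was lower for 19 of the 28, against 55.8% of all probes, with a median of -0.16. None passed limma's adjusted test, and 2 of the 28, both probes of CTGF, had an unadjusted p below 0.05, against 2.63% of all probes. CTGF, a secreted factor that induces matrix genes, read 3.34, 3.78 and 4.82 in LDM and 4.46, 5.38 and 5.39 in PMM with its brightest probe. It was higher in PMM in each pair with 1 overlapping array, and the difference was 1.1 ± 0.46 (SE). With its dimmer probe every PMM array lay above every LDM array, at 1.18 ± 0.39 (SE). The CTGF difference thus ran opposite to that of the fibrillar chains, and its adjusted p was 0.239 with the block. Both CTGF probes passed limma's test with the block when replicate 1 was left out, at adjusted p of 0.0295 and 0.0193. In that setting 529 of all probes passed, against 8 in the main fit. The dimmer CTGF probe also passed with slides as the block, at an adjusted p of 0.0403, where 300 of all probes passed.

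TGFB2, a ligand of the pathway that induces fibrillar collagens, read 1.37, 1.29 and 1.40 in LDM and 0.91, 0.69 and 0.59 in PMM. No PMM array reached an LDM array, and the difference was -0.63 ± 0.28 (SE), with p = 0.1 in the exact permutation test. The other ligands, TGFB1 and TGFB3, differed by 0.14 ± 0.46 and 0.29 ± 0.33 (SE). Among the receptors, TGFBR2 differed by -0.36 ± 0.51 (SE) and DDR2, a kinase that binds fibrillar collagen, by 0.25 ± 0.41 (SE). FKBP10, a chaperone of type I procollagen, read 3.13, 3.28 and 4.21 in LDM and 2.96, 3.11 and 3.47 in PMM, lower in each pair at -0.36 ± 0.37 (SE). P4HA1 and P4HA2, which hydroxylate the prolines of the helix, had 7 tested probes with differences between -0.33 and 0.07.

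Markers of the cells that make collagens were set beside these values. Of the fibroblast list, 4 of 8 genes had a probe, and the 3 tested, DCN, FN1 and THY1, were all lower in PMM. Their mean level was 2.75 to 4.02 in LDM and 2.55 to 3.44 in PMM, and its difference in pairs 1, 2 and 3 was -0.20, -0.32 and -0.57, beside -0.32, -0.30 and -0.54 for the fibrillar genes. The tendon markers TNMD, THBS4 and COMP had a mean of 0.09 to 1.53 in LDM and -0.70 to 0.52 in PMM. Most of that difference lay in TNMD, a membrane protein of tendon cells, at -2.52 ± 0.56 (SE, limma, adjusted p = 1.0) with no overlap, whereas THBS4 differed by -0.03 ± 0.40 (SE). All 6 endothelial markers, each by its brightest probe, were higher in PMM. The pair differences of their mean were 0.80, 0.32 and 0.11, beside 0.58, 0.27 and -0.07 for the type IV genes. In pair 3 PECAM1 and VWF differed by -0.12 and -0.03, while CDH5, TEK, ENG and KDR were higher in PMM. Of the dimmer endothelial probes only that of TEK was lower in PMM, at -0.05.

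The mean of the endothelial markers was 1.41 to 2.90 in LDM and 2.21 to 3.00 in PMM. The first LDM array was lowest, as for type IV and for the mean of the macrophage markers. The mean of the 6 adipocyte markers differed by -0.23, but its members went both ways, with 2 of the 6 higher in PMM. PLIN1 differed by -1.03 ± 0.62 (SE), whereas LPL differed by 1.12 ± 0.35 (SE) with no overlap. The mean of the 2 macrophage markers differed by 0.05. ACAN of cartilage differed by 0.01, while the mean of the skeletal fibre markers differed by 0.12. Slow fibre markers were higher in PMM in each pair, with a mean of 8.36 to 8.80 in LDM and 8.89 to 9.60 in PMM. Their pair differences of 0.79, 0.52 and 0.47 were also largest in pair 1. None of the 62 tested marker probes passed limma's adjusted test, against 0.031% of all probes. An unadjusted p below 0.05 was found for 3 of the 62, for LPL, TNMD and TNNI1, against 2.63% of all probes. The part of these cell types in the collagen values was not tested.

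**Figure D5:**
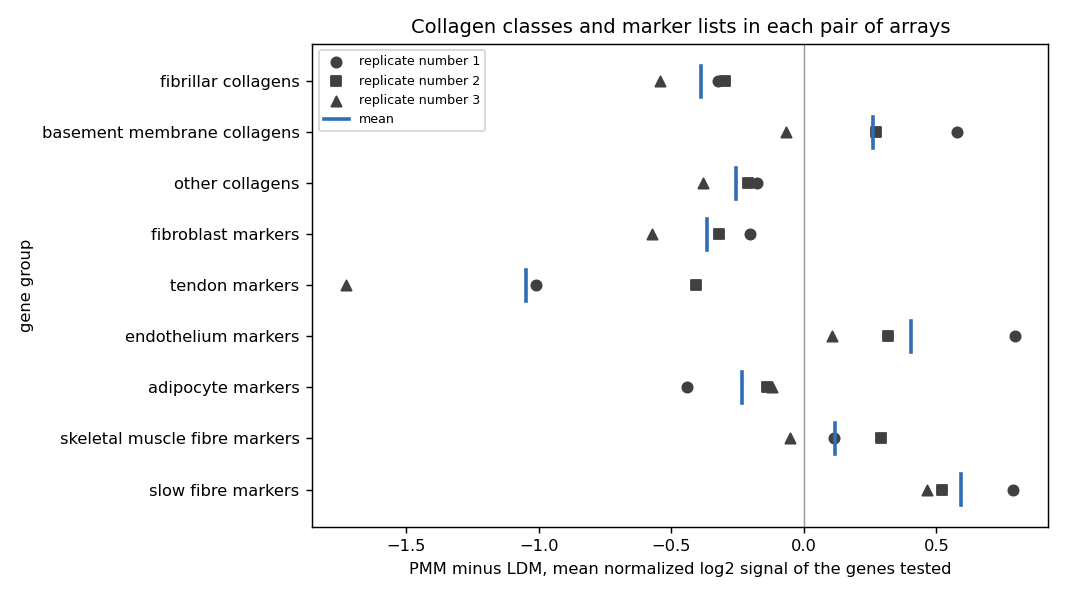
Difference between PMM and LDM in the mean normalized log2 signal of the tested genes of each collagen class and marker list (vertical axis), by replicate number (marks) and on average (blue line). Fibrillar and other collagens and the fibroblast, tendon and adipocyte markers lie left of 0 in all 3 pairs. Type IV collagens, endothelial markers and slow fibre markers each lie farthest right in pair 1.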

How the data were processed

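RNA from LDM and PMM was measured on 6 one-colour arrays, 3 per muscle, grouped by the sample titles. The authors deposited spot intensities from Agilent Feature Extraction 10.5.1.1, background-subtracted and detrended within each array but not normalized between arrays. The processed signals, less outlier spots, were averaged per probe, put on the log2 scale and lowered by the 75th percentile of the array. Tested were the 25835 probes that stood well above background on each array of at least 1 muscle and had at least 2 values in both. The test was the moderated one of limma (lmFit, eBayes; version 3.58.1, R 4.3.3), two-sided, with Benjamini-Hochberg adjustment over these probes and a threshold of 0.05. For single chains an exact permutation test of 3 against 3 arrays was added. The fit was tested on simulated data.

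Same-numbered arrays deviated together (correlations of 0.616, 0.697 and 0.56), so the replicate number was tried as a block. For other pairs the correlation was at most -0.0106. Deviations from a muscle's own mean cancel out, which by itself pushes these other pairs to negative values. Other alternatives were quantile, median and detected-probe scaling, normexp background correction with an offset of 50, no filter, outliers kept, the slide as a block, and leaving out arrays. The members, classes and lists (collagen pathway, skeletal and slow fibre, fibroblast, tendon, adipocyte, endothelium, macrophage, cartilage, and another that is not reported here) were chosen with earlier results of these data known. Named were the chains of types I, III, IV, V and VI, up to 3 further genes per class and pathway direction with the largest difference, genes without overlap, and every gene detected in 1 muscle only, each by its brightest probe. The chains left without that rule (COL2A1, COL5A3, COL8A1, COL10A1, COL4A3, COL22A1) were added so that every member is accounted for. Genes were named by the array files or, for the lists, through accessions, gene numbers and descriptions. No genome, promoter or protein sequence was used here.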

Additional observations from a re-analysis of the deposited data

How the results depend on the processing

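No collagen probe passed the adjusted test under any alternative tried. Over all probes, 8 passed; the count was 0 with the percentile over detected probes, with no filter, with outliers kept and with the replicate block plus quantile normalization, 1 with normexp, 17 with the replicate block, 300 when slides were the block, and 0 to 1 with an array left out. With the replicate block and without replicate 1, 2 or 3 it was 529, 1 and 0. Of the pathway probes, 1 (CTGF) passed when slides were the block and 2 (both CTGF) with the replicate block without replicate 1. The collagen median of -0.28 was -0.10 with normexp. With an array left out it ran from -0.45 (without PMM replicate 3) to 0.032 (without LDM replicate 3), the fibrillar median from -0.50 to -0.16, the type IV median from -0.11 to 0.60 and that of other types from -0.48 to 0.29. Fibrillar probes lower in PMM numbered 7 to 10, and type IV probes higher in PMM 1 to 3. With an array left out, 7 named genes changed sign. COL5A1 ran from -0.87 to 0.10, COL6A1 from -0.56 to 0.36, COL6A3 from -0.88 to 0.064 and TGFBR2 from -0.80 to 0.038, each highest without LDM replicate 3, and TGFBR2 was 0.032 without PMM replicate 2. COL4A2 ran from -0.11 (without LDM replicate 1) to 0.67, COL6A2 from -0.29 to 0.54 and DDR2 from -0.011 (without LDM replicate 1) to 0.58. COL6A2 turned from 0.04 also to -0.0018 with quantile normalization with or without the replicate block, to -0.022 with median centring, to -0.045 when slides were the block, and to -0.067 and -0.044 with the replicate block without replicates 1 and 2. The causes were not tested. The replicate block changed no other call.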

Other observations

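Some collagen probes fell outside the rule because the array files name them in another way, and were picked out after their values had been seen. One was a probe for COL11A1, a fibrillar chain that joins type II in cartilage and is also made by tendon cells, written COLL11A1 in the files.
COL11A1 probe P143151: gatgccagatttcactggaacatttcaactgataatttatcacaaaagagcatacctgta
It is printed because no other collagen probe seen was above the background on every array of 1 muscle and on none of the other. It is shown whole because 2 of its forward reading frames held no stop codon. It holds no AATAAA and so no capitals. It read -3.14, -3.68 and -3.63 in LDM, well above background on each array, and -5.83, -5.24 and -7.07 in PMM, well above it on none. The LDM signal was 2.78-fold above the lowest signal well above the background on each PMM array or the probe's own, whichever was higher. Whether this is a true lower limit was not tested. The size of the COL11A1 difference depended on how the background was treated. With normexp background correction it was only -0.17 on the log2 scale. The adjusted p of COL11A1 in limma was 0.669, or 0.165 with the replicate block, and fell below 0.05 only with slides as the block and with the replicate block without replicate 1. The probe entered the test through LDM alone and was picked by its values, so these p-values support nothing. A second COL11A1 probe was not well above background on any array.

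COL5A2 probe P306263, outside the rule as well, differed by -0.43 ± 0.39 (SE), close to the -0.42 of the COL5A2 probe inside it, and was lower in PMM in each pair. COL15A1, a chain on the outer face of basement membranes, differed by -0.10 ± 0.41 (SE). COL9A1, a cartilage chain, was well above the background on 2 LDM arrays and on no PMM array and was not tested.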
